A study of Rattus norvegicus with 4 samples.

Results

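The genes described here are Nr3c1, which encodes the glucocorticoid receptor, and 7 genes known as its targets, Fkbp5, Tsc22d3, Klf9, Mt1, Sgk1, Zbtb16 and Cdkn1a. They were chosen by name, with earlier results of these data known, so counts of members set beside those of all genes are descriptions. Looked up by symbol among the 30560 gene rows of the deposited matrices, 7 of the 8 had a row. The expression of Tsc22d3 was not analysed here. Single cells of the abdominal midline fascia, a sheet of connective tissue under the skin, were sequenced in 4 libraries. The 2 acupuncture libraries came from rats in which dysentery was induced with Salmonella and which then received acupuncture, and the 2 dysentery libraries came from rats with Salmonella-induced dysentery and no acupuncture. All 4 libraries therefore come from infected rats, and the labels used here give no strain, age, sex, acupuncture technique or time from treatment to collection. Groups follow the titles. In all 4 libraries the treatment field gives the other group than the title does, and taking it instead would reverse the sign of every change between the groups given here. Nothing in the labels says which animals gave which library, and p-values therefore reflect variation between libraries, which may be technical.

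The glucocorticoid receptor is a nuclear receptor that waits in the cytoplasm in a complex with Hsp90 chaperones and, once it has bound hormone, enters the nucleus and switches genes on or off. Fkbp5, a co-chaperone that lowers the receptor's affinity for hormone, is a classical induced gene and part of a feedback loop. Klf9 and Zbtb16 are transcription factors, Sgk1 is a kinase that regulates ion transport and cell survival, Mt1 is a metal-binding metallothionein, and Cdkn1a encodes the cell cycle inhibitor p21. Metallothionein genes are also induced by zinc and other metals through the factor Mtf1, and Cdkn1a is also a target of p53.

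Promoter windows from 250 bases before to 50 bases after the transcription start were read from RefSeq sequences of the rat build GRCr8 for 7 of the 8 genes, in 12 windows (Zbtb16 had none). The exact form of the glucocorticoid response element was searched as the hexamer TGTTCT preceded by its reverse complement, with any 3 bases between them. It occurred on either strand in 0.0149% of 33469 promoters and in none of these windows. At so low a share, absence from 12 windows tells nothing about these genes. The hexamer alone, which the exact form contains, occurred in 20.7% of all promoters and in none of these windows. Variants of the element and sites outside the windows were not searched. The metal response element, searched as TGCGCNC or TGCACNC on both strands, occurred in 24.2% of all promoters, 6 times in the Mt1 window and once each in a window of Nr3c1 and of Tsc22d3. The window of Mt2A, the neighbouring metallothionein gene, held 4 matches. These are shown because both genes rose in the same classes of cells, with the matches in capitals. A match describes letters and not a bound site. The Mt1 window is chr19:10832926-10833225 and the Mt2A window chr19:10838659-10838958, both in GRCr8 on the minus strand.
Mt1: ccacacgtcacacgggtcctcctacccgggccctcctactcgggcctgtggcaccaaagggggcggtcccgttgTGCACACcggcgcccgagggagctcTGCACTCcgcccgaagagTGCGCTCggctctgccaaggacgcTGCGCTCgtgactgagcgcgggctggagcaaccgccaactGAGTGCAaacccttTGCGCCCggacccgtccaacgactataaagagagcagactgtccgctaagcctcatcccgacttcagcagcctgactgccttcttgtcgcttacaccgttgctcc
Mt2A: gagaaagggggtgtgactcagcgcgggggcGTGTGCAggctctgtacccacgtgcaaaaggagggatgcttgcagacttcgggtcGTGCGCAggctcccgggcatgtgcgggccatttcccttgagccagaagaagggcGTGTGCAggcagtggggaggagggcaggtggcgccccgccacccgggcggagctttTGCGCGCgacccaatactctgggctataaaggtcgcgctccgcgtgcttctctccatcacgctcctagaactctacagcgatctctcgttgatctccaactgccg
The AP-1 motif TGANTCA, present in 7.33% of all promoters, occurred once each in the windows of Klf9 and Mt2A and in 1 of the 3 windows of Sgk1.

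Cells were assigned to a class when they passed the marker gate of only that class, and class names carry "-like" since only these markers define them. The gates held 16387 fibroblast-like, 5734 macrophage-like, 755 dendritic cell-like, 788 neutrophil-like, 1147 T cell-like, 703 NK or innate lymphoid-like and 466 vascular endothelial-like cells. Among all cells with at least 3 markers of a type, 265 lay within 1.5-fold of the fibroblast gate, 357 of the macrophage gate and 238 of the dendritic gate. These counts take in cells below a gate or passing several gates, so they are not parts of the classes. Set against the size of the class, the count was largest for the dendritic gate of these 3. The libraries held 53066666 to 93897006 UMIs (unique molecular identifiers, each marking 1 captured RNA molecule), and 6310 to 9800 cells each passed the filters. Dysentery library 1 stood apart in quality, with 16% of its cells above the mitochondrial limit, against 5.11% to 7.17% in the others. Pairs of libraries shared 19 to 32 cell barcodes. Levels are given as CPM, the UMIs of a gene per 1000000 UMIs of all genes, in the pooled cells of 1 class in 1 library.

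The receptor gene itself did not pass the test in any class. In fibroblast-like cells Nr3c1 (ENSRNOG00000014096) was at 169.7 and 134 CPM in the acupuncture libraries, against 186 and 161 CPM in the dysentery libraries, and the groups overlapped. In macrophage-like cells it was at 140.5 and 139.7 CPM with acupuncture, against 173 and 180.2 CPM with dysentery alone, so both acupuncture libraries were lower. The log2 fold change was -0.18 ± 0.12 (SE) in fibroblast-like and -0.19 ± 0.10 in macrophage-like cells (adjusted p = 0.441 and 0.354, edgeR quasi-likelihood test with Benjamini-Hochberg adjustment over all genes of the class, the test used throughout). In macrophage-like cells the CPM of a gene in the middle of all genes was 0.13 lower on the log2 scale with acupuncture. The fold changes are scaled to remove such shifts, and 41.9% of all macrophage-like genes had both acupuncture libraries below both dysentery libraries in CPM.

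**Figure D1:**
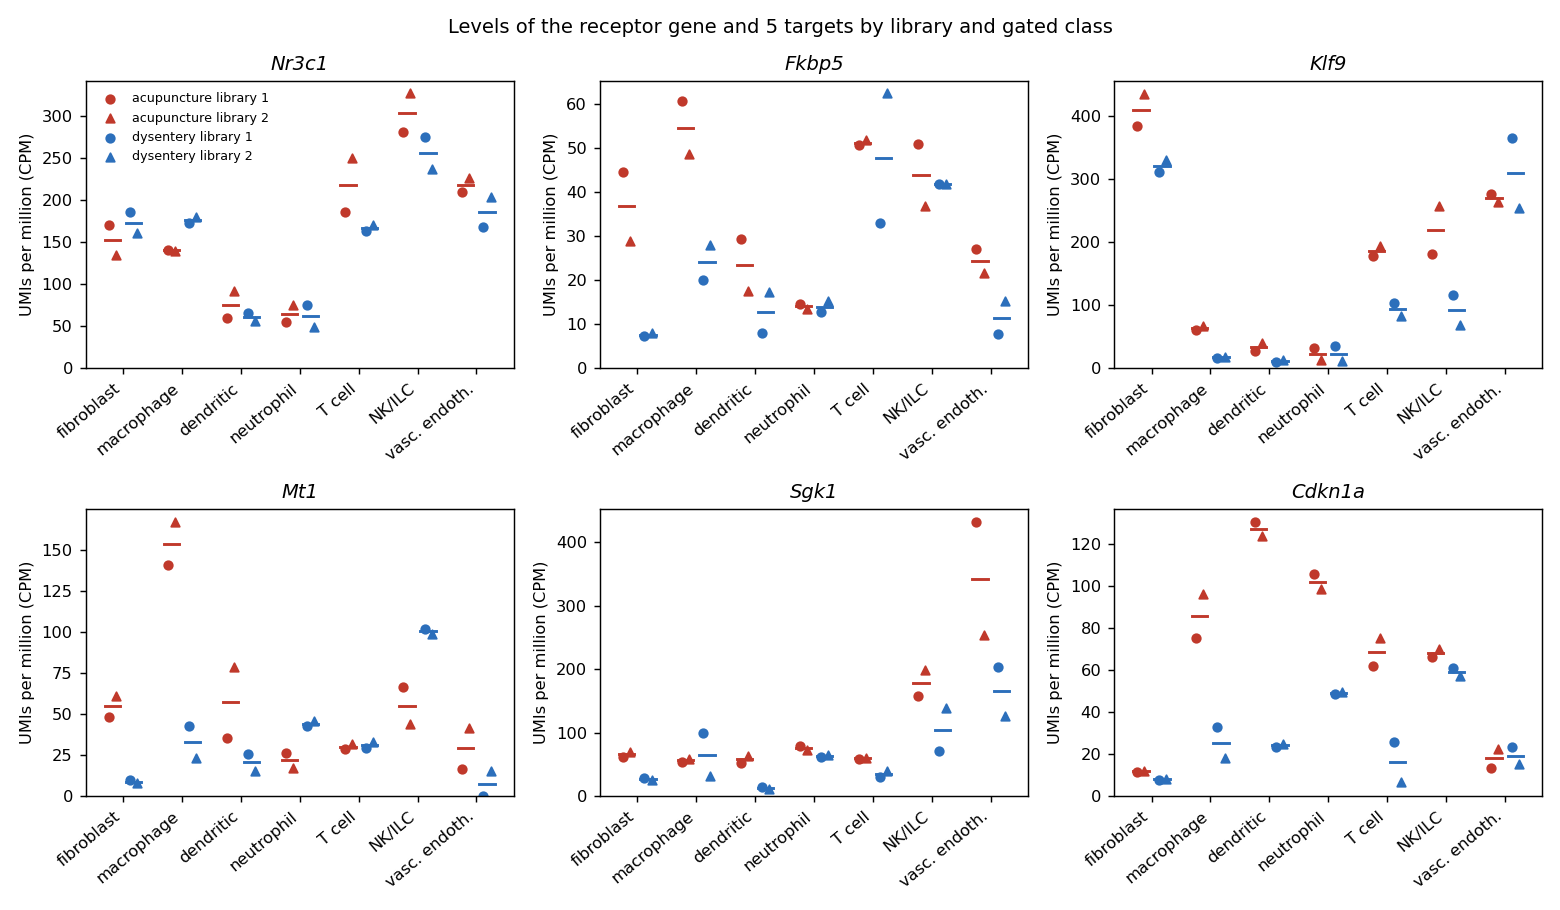
CPM of the receptor gene and 5 targets in 7 gated classes. Circles and triangles are libraries 1 and 2 of each group, acupuncture in red at the left of each pair and dysentery in blue, and lines are group means. Fkbp5 and Mt1 of fibroblast-like cells and Klf9 of macrophage-like cells lie well above their dysentery values, while Nr3c1 lies close to them.

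Across classes Nr3c1 was highest in NK or innate lymphoid-like cells, at a mean of 279.7 ± 37.0 CPM over the 4 libraries (SD), whose lowest library lay above the highest of the next class. Vascular endothelial-like cells followed with 202 ± 24.8 CPM, T cell-like cells with 192 ± 39.8, fibroblast-like cells with 163 ± 21.4 and macrophage-like cells with 158 ± 21.3 CPM, and these neighbours overlapped. Dendritic cell-like cells (68.7 ± 16.2 CPM) and neutrophil-like cells (63.8 ± 13.6 CPM) were lower than macrophage-like cells in all 4 libraries and overlapped each other. The level in macrophage-like minus fibroblast-like cells was 0.00 ± 0.10 on the log2 scale (adjusted p = 0.984).

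Fkbp5, Mt1 and Sgk1 rose in fibroblast-like cells after acupuncture, and the other 4 genes with a row did not pass the test. Thus 3 of 7 members rose, while 1.81% of the 13166 genes tested in this class rose. The median log2 fold change of the 7 was 1.16, and that of all genes -0.01. For 6 of the 7 both acupuncture libraries lay above both dysentery libraries, which 24.2% of all genes did. Fkbp5 (ENSRNOG00000022523) was at 44.5 and 28.9 CPM in the acupuncture libraries, against 7.25 and 8.11 CPM in the dysentery libraries. Every acupuncture value was several times the dysentery values, although the acupuncture libraries differed from each other. The log2 fold change was 2.24 ± 0.19 (adjusted p = 0.00979), or 4.73-fold.

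Mt1 (ENSRNOG00000038047) had 48.4 and 61.1 CPM in fibroblast-like cells with acupuncture, against 9.64 and 7.77 CPM with dysentery alone. With a log2 fold change of 2.68 ± 0.20 (adjusted p = 0.00687) it had the largest change of the members in this class. Metallothionein genes are close copies of each other, so reads may have been split between Mt1 and its relatives. Sgk1 (ENSRNOG00000011815) had 62.4 and 68.9 CPM with acupuncture, against 28.0 and 25.3 CPM with dysentery alone. The libraries of a group lay close together, and the log2 fold change was 1.32 ± 0.13 (adjusted p = 0.0131).

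Klf9 (ENSRNOG00000014215) was already high in fibroblast-like cells, at 384 and 435 CPM with acupuncture, against 313 and 331 CPM with dysentery alone. Its log2 fold change of 0.36 ± 0.16 did not pass (adjusted p = 0.263). Cdkn1a (ENSRNOG00000000521) had 11.5 and 12.1 CPM with acupuncture, against 7.92 and 8.40 CPM with dysentery alone, and its log2 fold change of 0.54 ± 0.14 did not pass either (adjusted p = 0.126). Zbtb16 (ENSRNOG00000029980) was at 4.73 and 2.44 CPM with acupuncture, against 1.34 and 1.78 CPM with dysentery alone (log2 fold change 1.16 ± 0.36, adjusted p = 0.167). All 3 had both acupuncture libraries above both dysentery libraries without reaching the threshold. The 3 calls of Fkbp5, Mt1 and Sgk1 held when any 1 library was left out, although leaving out acupuncture library 1 or 2 or dysentery library 1 moved the number of genes called in this class to 175, 95 or 593, against 340 with all libraries.

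**Figure D2:**
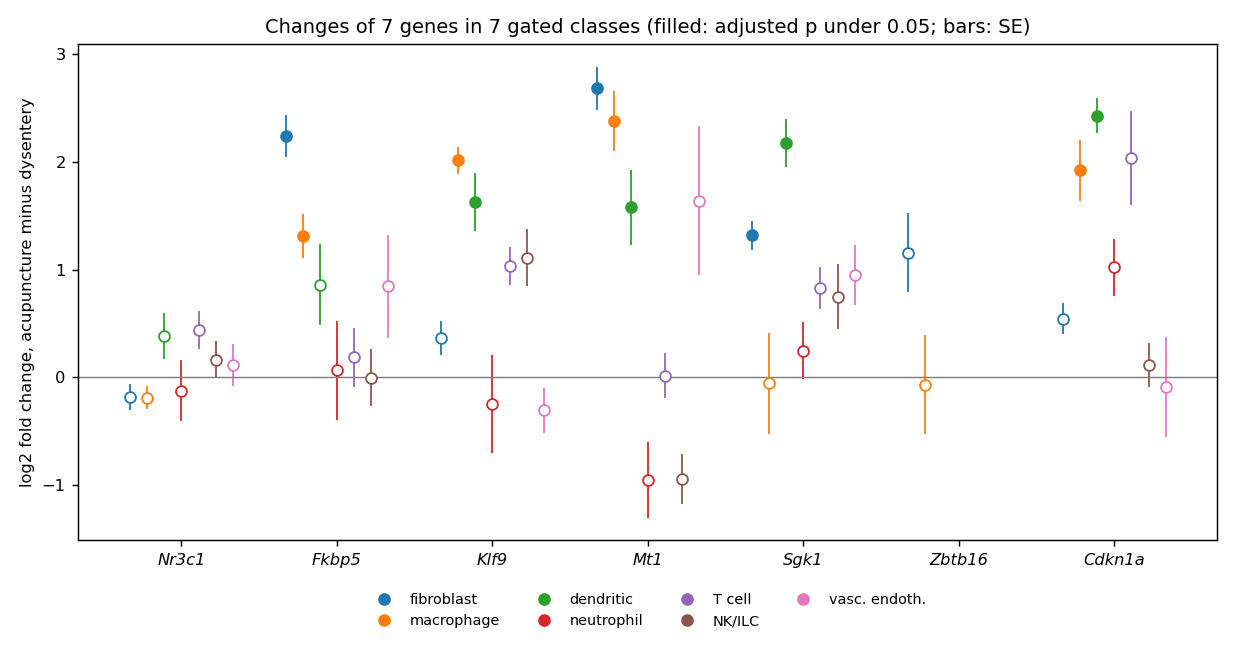
Log2 fold change, acupuncture minus dysentery, of the 7 genes with a row in 7 gated classes (colours). Bars are standard errors and filled points passed an adjusted p of 0.05. Filled points stand in fibroblast-like, macrophage-like and dendritic cell-like cells, all above 0, and Nr3c1 has none.

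In macrophage-like cells a partly different set rose, namely Klf9, Mt1, Cdkn1a and Fkbp5. These were 4 of the 7 members, while 1.88% of the 11237 genes tested in this class rose. The median log2 fold change of the 7 was 1.31 and that of all genes 0.00, and both acupuncture libraries lay above both dysentery libraries for 4 members and 17.2% of all genes. Klf9 had 60.9 and 66.8 CPM in the acupuncture libraries, against 17.3 and 17.6 CPM in the dysentery libraries. Its libraries barely differed within a group, and the log2 fold change was 2.02 ± 0.13 (adjusted p = 0.00827), or 4.05-fold.

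Mt1 had 141 and 167 CPM in macrophage-like cells with acupuncture, against 42.9 and 23.3 CPM with dysentery alone (log2 fold change 2.38 ± 0.28, adjusted p = 0.0252). Cdkn1a had 75.5 and 96.2 CPM with acupuncture, against 32.8 and 18.1 CPM with dysentery alone (1.92 ± 0.28, adjusted p = 0.0355). Fkbp5 had 60.6 and 48.6 CPM with acupuncture, against 20.1 and 28.1 CPM with dysentery alone (1.31 ± 0.21, adjusted p = 0.0389). In each of these the lowest acupuncture library was above the highest dysentery library. The calls rested on few libraries. Without acupuncture library 1 only Klf9 among the members passed, without acupuncture library 2 none did (Klf9 1.94, adjusted p = 0.0526), and the number of genes called in the class was then 34 and 19, against 349 with all libraries.

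Sgk1 of macrophage-like cells was decided by single dysentery libraries. It had 54.3 and 58.3 CPM with acupuncture, against 99.3 and 31.9 CPM with dysentery alone, with both acupuncture libraries between the dysentery ones. The log2 fold change was -0.05 ± 0.47 (adjusted p = 0.962). Without dysentery library 1 it was 0.96 (adjusted p = 0.00950), and without dysentery library 2 it was -0.65 (adjusted p = 0.0434), so the sign and the call turned on which one was kept. Leaving out dysentery library 1 or 2 also raised the number of genes called in the class to 957 or 802. Zbtb16 was near the limit of detection, at 2.51 and 1.36 CPM with acupuncture, against 2.58 and 1.90 CPM with dysentery alone (-0.07 ± 0.46, adjusted p = 0.949).

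Dendritic cell-like cells were few, at 81 and 218 cells in the acupuncture libraries, against 255 and 201 cells in the dysentery libraries. Zbtb16 was too low there to test, with 2 and 1 UMIs with acupuncture, against 2 and 1 UMIs with dysentery alone. Of the 6 members tested, 4 rose, while 5.33% of the 8880 genes tested rose. For 5 of the 6 both acupuncture libraries lay above both dysentery libraries, and for 22.6% of all genes. Cdkn1a had 131 and 124 CPM with acupuncture, against 23.4 and 24.9 CPM with dysentery alone, and its log2 fold change of 2.43 ± 0.16 was the largest of the members in this class (adjusted p = 1.16e-05). Sgk1 had 53 and 62.8 CPM with acupuncture, against 14.9 and 11.3 CPM with dysentery alone (2.18 ± 0.23, adjusted p = 0.000200).

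Klf9 rose in dendritic cell-like cells too, with 28.3 and 40.7 CPM with acupuncture, against 10.9 and 13.2 CPM with dysentery alone (1.63 ± 0.27, adjusted p = 0.00415). Mt1 had 35.6 and 78.4 CPM with acupuncture, against 25.5 and 15.5 CPM with dysentery alone (1.58 ± 0.35, adjusted p = 0.0223). The Mt1 rise depended on acupuncture library 2, without which the log2 fold change was 0.78 (adjusted p = 0.0848). Fkbp5 had 29.2 and 17.6 CPM with acupuncture, against 8.15 and 17.4 CPM with dysentery alone, and did not pass (0.86 ± 0.38, adjusted p = 0.252). Without acupuncture library 2 it passed at 1.27, and without dysentery library 2 at 1.48 (adjusted p = 0.00553 and 0.00632). Nr3c1 was at 59.4 and 92.3 CPM with acupuncture, against 66.2 and 56.9 CPM with dysentery alone (0.39 ± 0.21, adjusted p = 0.374), and passed only without acupuncture library 1, at 0.63 (adjusted p = 0.00551). Most cells of this gate, 540 of 755, fell in clusters named macrophage in an unsupervised clustering, and their summed macrophage markers (8 genes) stood at 1072 and 950.1 CPM with acupuncture, against 918 and 1058 CPM with dysentery alone. The 8 dendritic cell markers summed to 1994 and 2068 CPM in this class with acupuncture, against 2156 and 2281 CPM with dysentery alone. In macrophage-like cells they summed to 3427 and 2768 CPM with acupuncture, against 1927 and 2650.0 CPM with dysentery alone, so the level of these markers does not set the class apart from macrophage-like cells. The macrophage markers do, with sums of 35679 and 31279 CPM in macrophage-like cells with acupuncture, against 27590 and 28175 CPM with dysentery alone. The gates partly impose that difference.

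No member passed in the remaining 4 classes, in each of which 6 members were tested. Genes called made up 0.169% of 4721 genes in neutrophil-like, 0.44% of 7963 in T cell-like, 0.819% of 6225 in NK or innate lymphoid-like and 1.34% of 6437 in vascular endothelial-like cells. At an unadjusted p under 0.05 stood 2, 4, 3 and 2 members in that order of classes, while 362 of 4721, 757 of 7963, 802 of 6225 and 955 of 6437 genes tested did. DESeq2 called 0, 1, 0 and 0 members, and 12, 90, 47 and 45 genes. Both acupuncture libraries were above both dysentery libraries for 2, 4, 4 and 4 members, against 24%, 17.9%, 28.7% and 32.1% of all genes.

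Klf9 of T cell-like cells came closest, with 179 and 195 CPM with acupuncture, against 105 and 82.9 CPM with dysentery alone (1.04 ± 0.18, adjusted p = 0.0598). It passed in 10 of 12 alternative analyses, among them those without acupuncture library 1 and without either dysentery library (1.10, 1.26 and 0.86). In NK or innate lymphoid-like cells it had 182 and 257 CPM with acupuncture, against 117 and 69.7 CPM with dysentery alone (1.11 ± 0.26, adjusted p = 0.113), and passed without acupuncture library 1 or 2 or dysentery library 1 (1.34, 0.83 and 1.55). Cdkn1a of T cell-like cells had 62.1 and 75.2 CPM with acupuncture, against 25.8 and 6.57 CPM with dysentery alone (2.04 ± 0.43, adjusted p = 0.11). It passed in 7 of 12 alternative analyses, among them each with 1 library left out, where values lay between 1.44 and 3.46. Leaving out 1 library left a group with 1 library. More genes of T cell-like and of NK or innate lymphoid-like cells then passed, so such calls are weak evidence of a stable change. Klf9 of NK or innate lymphoid-like cells passed in 4 of 12 alternative analyses. In neutrophil-like cells Cdkn1a had 106 and 98.6 CPM with acupuncture, against 48.8 and 49.6 CPM with dysentery alone (1.02 ± 0.27, adjusted p = 0.269).

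Mt1 had values below the dysentery libraries in neutrophil-like and in NK or innate lymphoid-like cells, without passing the test. In NK or innate lymphoid-like cells it had 66.2 and 43.7 CPM with acupuncture, against 102 and 98.8 CPM with dysentery alone, so both acupuncture libraries were lower (-0.94 ± 0.23, adjusted p = 0.121). It passed in 4 of 12 alternative analyses, among them those without acupuncture library 1 or either dysentery library (-1.27, -0.94 and -0.97). In neutrophil-like cells it had 26.4 and 17.4 CPM with acupuncture, against 42.4 and 45.8 CPM with dysentery alone (-0.95 ± 0.35, adjusted p = 0.567). Lower values of this kind, without overlap, were found for 16.5% of all NK or innate lymphoid-like and 15.1% of all neutrophil-like genes, and the difference between these classes and the others was not tested.

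Sgk1 had its highest mean in vascular endothelial-like cells, whose range overlapped that of NK or innate lymphoid-like cells and which lay above them in 3 of 4 libraries. It had 432 and 253 CPM with acupuncture, against 204 and 126 CPM with dysentery alone, in vascular endothelial-like cells (0.95 ± 0.28, adjusted p = 0.126). It passed there in 3 of 12 alternative analyses, among them that without acupuncture library 2, at 1.30. In T cell-like cells Sgk1 had 59.2 and 60.2 CPM with acupuncture, against 30.6 and 39.4 CPM with dysentery alone (0.83 ± 0.20, adjusted p = 0.157). It passed there in 3 of 12 alternative analyses, among them that without dysentery library 2 (0.98). In NK or innate lymphoid-like cells it had 158 and 199 CPM with acupuncture, against 70.6 and 139 CPM with dysentery alone (0.75 ± 0.30, adjusted p = 0.355). It passed there in 3 of 12 alternative analyses, among them those without acupuncture library 1 or dysentery library 2 (0.91 and 1.26). Mt1 of vascular endothelial-like cells had 16.6 and 41.6 CPM with acupuncture, against 0 and 15.4 CPM with dysentery alone (adjusted p = 0.282). It passed in 3 of 10 alternative analyses, among them that without acupuncture library 1 (2.06). Vascular endothelial-like cells differed in depth, with a median of 2807.5 and 4077 UMIs per cell with acupuncture, against 7144 and 6617 UMIs with dysentery alone, and the part of depth in these values was not tested.

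The other values of the members in these 4 classes did not pass either. Nr3c1 of T cell-like cells had 186 and 250.4 CPM with acupuncture, against 163 and 171 CPM with dysentery alone (0.44 ± 0.18, adjusted p = 0.480). Its log2 fold changes were -0.12 ± 0.29 in neutrophil-like, 0.17 ± 0.18 in NK or innate lymphoid-like and 0.11 ± 0.19 in vascular endothelial-like cells. Klf9 did not run higher in all classes. In vascular endothelial-like cells it had 276 and 264 CPM with acupuncture, against 366 and 255 CPM with dysentery alone (-0.31 ± 0.21, adjusted p = 0.532), and in neutrophil-like cells 31.9 and 13.5 CPM, against 35.2 and 11.4 CPM (-0.24 ± 0.45, adjusted p = 0.914). Fkbp5 of vascular endothelial-like cells had 27.2 and 21.7 CPM with acupuncture, against 7.73 and 15.4 CPM with dysentery alone (0.85 ± 0.48, adjusted p = 0.439), from 3 to 24 UMIs a library. Its groups overlapped in neutrophil-like (0.06 ± 0.46), T cell-like (0.18 ± 0.28) and NK or innate lymphoid-like cells (-0.00272 ± 0.26). The log2 fold change of Mt1 was 0.02 ± 0.21 in T cell-like cells and that of Sgk1 0.25 ± 0.27 in neutrophil-like cells. Cdkn1a stood at 0.12 ± 0.20 in NK or innate lymphoid-like and -0.09 ± 0.47 in vascular endothelial-like cells. Zbtb16 had 0 to 9 UMIs a library in these classes and was not tested.

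The change of Klf9 differed between macrophage-like and fibroblast-like cells, by 1.68 ± 0.20 on the log2 scale (adjusted p = 0.0217 for the interaction term, with library as a block). It was the 1 member of 7 that passed, while 1.11% of 13652 genes did. Klf9 also differed most in level, standing 3.41 ± 0.11 lower on the log2 scale in macrophage-like than in fibroblast-like cells (adjusted p = 7.12e-09). The difference in change lost its call without acupuncture library 1 (1.58, adjusted p = 0.308) and without acupuncture library 2 (1.78, adjusted p = 0.256), where no gene at all passed. Cdkn1a, with 1.44 ± 0.29, just missed (adjusted p = 0.0624). It passed with a stricter gate (1.44), with doublets kept (1.26), with a lower mitochondrial limit (1.49), and without dysentery library 1 or 2 (1.92 and 0.95).

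For Fkbp5 the difference in change, macrophage-like minus fibroblast-like, was -0.90 ± 0.20 and did not pass (adjusted p = 0.0811). It passed in 2 of 9 alternative analyses, among them that without dysentery library 1 (-1.02). For Sgk1 the difference was -1.17 ± 0.40 (adjusted p = 0.232), and it passed without dysentery library 2 (-1.90). Mt1 (-0.22 ± 0.23, adjusted p = 0.772), Zbtb16 (-1.19 ± 0.50, adjusted p = 0.351) and Nr3c1 (0.02 ± 0.19, adjusted p = 1) did not pass. In level, Cdkn1a, Mt1 and Fkbp5 were higher in macrophage-like cells by 2.24 ± 0.15, 1.72 ± 0.12 and 1.16 ± 0.10 on the log2 scale (adjusted p = 1.13e-06, 1.48e-06 and 7.52e-06). With Klf9 these were 4 of 7 members, in a comparison in which 69.1% of all genes passed. Sgk1 (0.47 ± 0.20, adjusted p = 0.061) and Zbtb16 (-0.17 ± 0.25, adjusted p = 0.564) did not pass in level, and Sgk1 passed without dysentery library 2 (0.83).

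**Figure D3:**
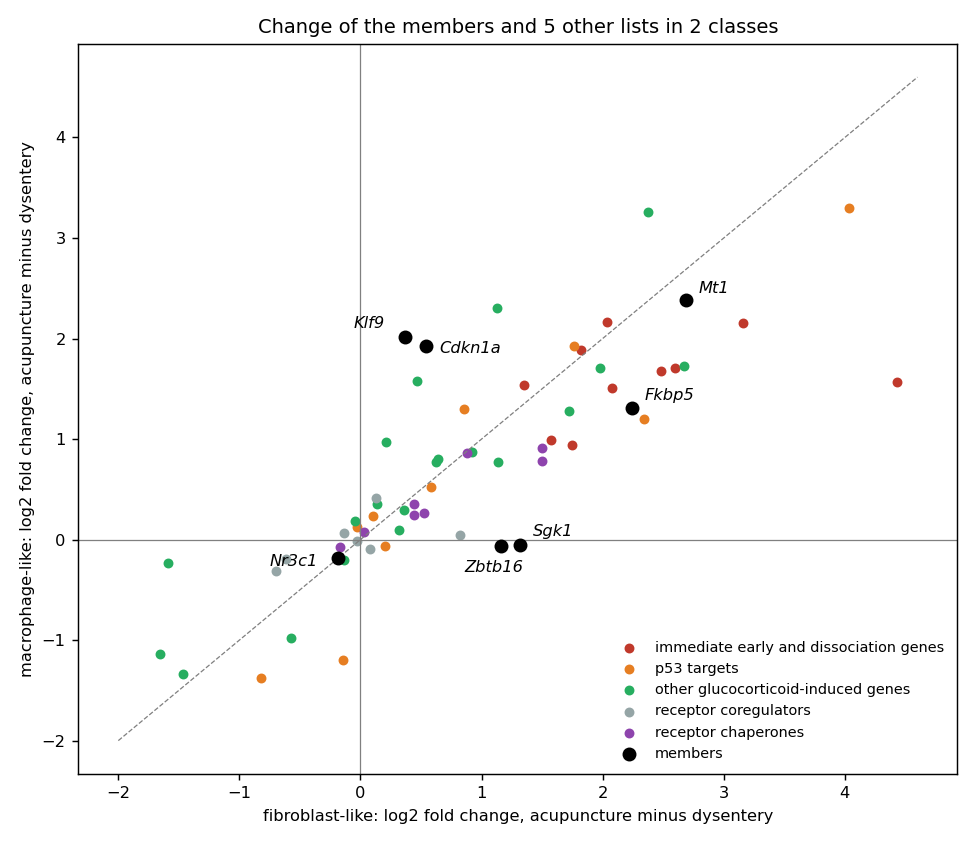
Log2 fold change, acupuncture minus dysentery, in fibroblast-like cells (horizontal) and macrophage-like cells (vertical) for the 7 genes with a row (black, named) and genes of 5 other lists (colours). The dashed line marks equal change. Mt1 and Fkbp5 lie high on both axes, Klf9 and Cdkn1a high on the vertical axis, Sgk1 and Zbtb16 to the right near 0 on the vertical axis, and Nr3c1 near 0 on both. Both axes come from the same 4 libraries.

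The members called differed from class to class. Mt1 was called in 3 classes, Fkbp5 in fibroblast-like and macrophage-like cells, Klf9 and Cdkn1a in macrophage-like and dendritic cell-like cells, and Sgk1 in fibroblast-like and dendritic cell-like cells. All called changes of members were rises. The classes come from the same 4 libraries and are not independent of each other. Over the 15 pairs of 6 genes, in cells thinned to 2000 UMIs, Spearman's rho lay between -0.04 and 0.11 in fibroblast-like cells and between -0.07 and 0.22 in macrophage-like cells of any 1 library. Counts this sparse yield low values of rho, which are given as a description.

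Shares of cells with a UMI were also compared. Each cell was thinned to 2000 UMIs, which left out shallower cells and kept 6668 fibroblast-like cells with acupuncture and 8019 with dysentery alone. Fkbp5 was then seen in 9.18% and 6.02% of fibroblast-like cells with acupuncture, against 1.81% and 1.70% with dysentery alone, and before thinning in 25.2% and 23.0%, against 5.10% and 5.28%. Klf9 was seen in 10.6% and 11.7% of macrophage-like cells with acupuncture, against 2.51% and 3.25% with dysentery alone, and before thinning in 31.5% and 39.5%, against 8.97% and 9.19%. The thinned macrophage-like cells numbered 4078 with acupuncture and 1513 with dysentery alone. Neutrophil-like cells, the class with the lowest mean Nr3c1, showed Fkbp5 in 4.44% and 3.81% with acupuncture, against 2.17% and 1.85% with dysentery alone. These shares rest on 10 and 4 cells, against 5 and 1. Before thinning they were 5.49% and 5.93%, against 4.56% and 5.88%. Klf9 was seen in 3.11% and 2.86% of neutrophil-like cells, against 3.91% and 1.85%, and before thinning in 8.06% and 3.39%, against 6.99% and 4.41%. No class known to lack these genes was at hand, so free RNA was not measured separately.

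**Figure D4:**
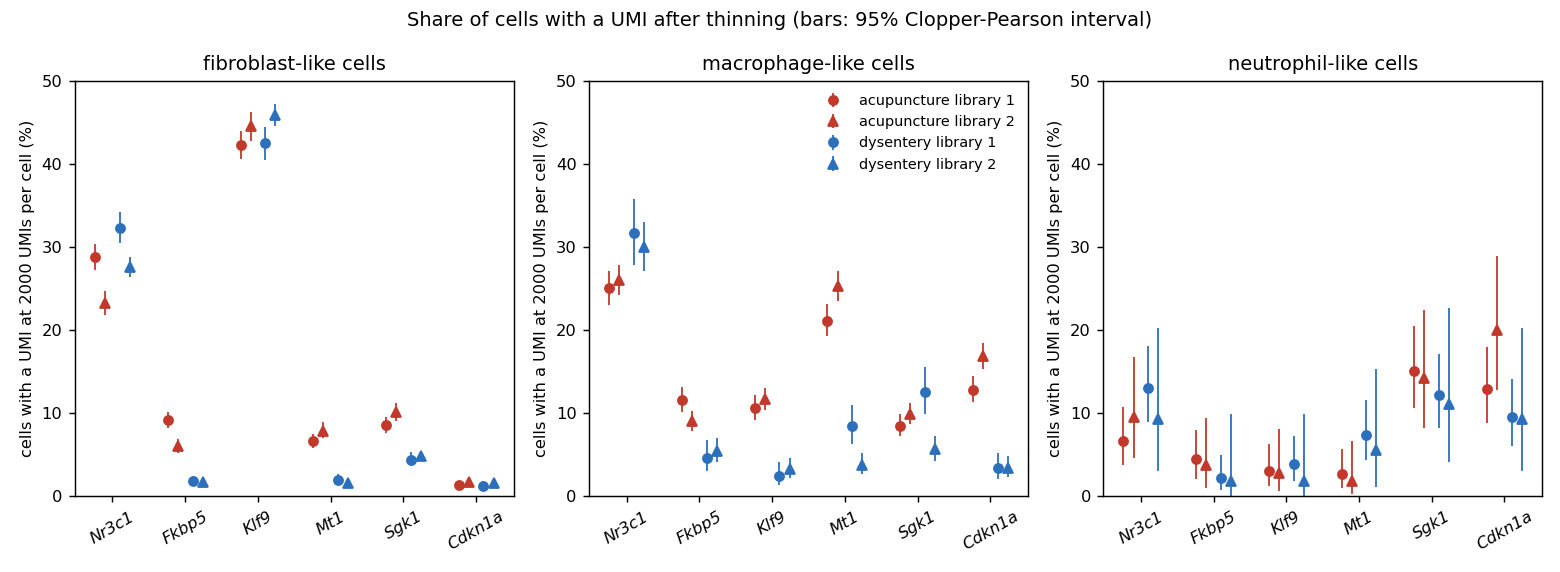
Share of cells with at least 1 UMI of each gene after thinning every cell to 2000 UMIs, in fibroblast-like, macrophage-like and neutrophil-like cells, for acupuncture libraries (red, left) and dysentery libraries (blue, right). Bars are 95% Clopper-Pearson intervals and cover counting error only. In macrophage-like cells Fkbp5, Klf9, Mt1 and Cdkn1a stand higher in both acupuncture libraries, and Sgk1 stands highest in dysentery library 1.

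Genes that hold, modify or assist the receptor were then examined. Of 8 chaperone and co-chaperone genes tested, 2 rose in fibroblast-like and none in macrophage-like cells. In macrophage-like cells 7 of the 8 had a log2 fold change above 0, with a median of 0.31, and 4 of the 8 rose in dendritic cell-like cells. Hsp90aa1, the stress-inducible Hsp90, was at 933 and 956 CPM in fibroblast-like cells with acupuncture, against 352 and 325 CPM with dysentery alone (1.5 ± 0.14, adjusted p = 0.00997). Dnajb1, an Hsp40 co-chaperone, was at 71.8 and 96.3 CPM, against 31.9 and 28.6 CPM (1.5 ± 0.20, adjusted p = 0.0268). Fkbp4, the co-chaperone that competes with Fkbp5 for the receptor complex, was at 66.5 and 69.7 CPM with acupuncture, against 53.1 and 48.1 CPM with dysentery alone (0.44 ± 0.11, adjusted p = 0.116).

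Of 7 coregulator genes tested, Nrip1, a corepressor, rose in fibroblast-like cells, with 90.1 and 81.8 CPM with acupuncture, against 55.8 and 42.7 CPM with dysentery alone (0.82 ± 0.13, adjusted p = 0.0396), a call lost in 3 of 12 alternative analyses, and none changed in macrophage-like cells. Hsd11b1, the enzyme that regenerates active glucocorticoid within cells, was at 52.7 and 68.5 CPM in fibroblast-like cells with acupuncture, against 64.8 and 50.6 CPM with dysentery alone (0.10 ± 0.20, adjusted p = 0.820). Hsd11b2, which inactivates the hormone, was at 3.82 and 2.41 CPM, against 2.05 and 0.602 CPM (adjusted p = 0.260). In dendritic cell-like cells it rose, with 30 and 28 UMIs (27.4 and 9.5 CPM) with acupuncture, against 3 and 2 UMIs (1.02 and 0.940 CPM) with dysentery alone (4.01 ± 0.69, adjusted p = 0.00557), and it was the 1 gene of its list tested there. Nr3c2, the mineralocorticoid receptor gene, was at 2.05 and 1.67 CPM with acupuncture, against 3.24 and 3.85 CPM with dysentery alone (-0.94 ± 0.25, adjusted p = 0.127).

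Other genes known to be induced by glucocorticoids moved in both directions. In fibroblast-like cells 4 of 21 tested rose and 3 fell (0.775% of all genes fell), with a median log2 fold change of 0.36. Those that rose were Gadd45a, a growth arrest and DNA damage gene (2.67 ± 0.14, adjusted p = 0.00154), Mt2A (2.37 ± 0.31, adjusted p = 0.0265), Nfkbia, which encodes an inhibitor of NF-kB (1.98 ± 0.25, adjusted p = 0.0255), and Zfp36, which destabilises cytokine mRNAs (1.72 ± 0.16, adjusted p = 0.00997). Those that fell were Il1r2, the decoy receptor of interleukin 1, Angptl4, an inhibitor of lipoprotein lipase, and Pdk4, a kinase that limits glucose oxidation. Il1r2 was at 116 and 136 CPM with acupuncture, against 348 and 452 CPM with dysentery alone (-1.65 ± 0.21, adjusted p = 0.0244). Angptl4 had 100.1 and 61.5 CPM with acupuncture, against 241 and 243 CPM with dysentery alone (-1.59 ± 0.19, adjusted p = 0.0227). Pdk4 had 11.5 and 7.61 CPM, against 27.4 and 25.4 CPM (-1.47 ± 0.17, adjusted p = 0.0190). These 3 are induced by glucocorticoids in other tissues, and in fibroblast-like cells they were lower in both acupuncture libraries. Over 12 alternative analyses all 3 kept their direction, and the call was lost in 2 for Il1r2, 1 for Pdk4 and 0 for Angptl4. In dendritic cell-like cells 9 of 15 genes of this list rose and 1 fell (1.39% of all genes fell). Il1r2 was among those that rose there, with 52.1 and 42.4 CPM with acupuncture, against 14.3 and 13.2 CPM with dysentery alone (1.78 ± 0.22, adjusted p = 0.000712). The largest rises were those of Tiparp (2.64 ± 0.15, adjusted p = 5.74e-06) and Errfi1 (2.49 ± 0.22, adjusted p = 6.67e-05), and Anxa1 fell (-0.41 ± 0.10, adjusted p = 0.0353). The call of Anxa1 was lost in 3 of 10 alternative analyses, among them DESeq2.

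In macrophage-like cells 4 of 20 rose and none fell (1.23% of all genes fell), with a median log2 fold change of 0.77. They were Mt2A (3.26 ± 0.52, adjusted p = 0.0408), Tiparp (2.30 ± 0.28, adjusted p = 0.0257), Zfp36 (1.28 ± 0.16, adjusted p = 0.0255) and Cebpd, a transcription factor (0.80 ± 0.13, adjusted p = 0.0398). Cd163 stood on this list and also among the markers of the macrophage gate, so it helped to select the cells in which it was tested. It did not pass there (0.77 ± 0.20, adjusted p = 0.104). Mt2A had 511 and 386 CPM with acupuncture, against 80.3 and 25.2 CPM with dysentery alone. In fibroblast-like cells Mt2A had 457 and 522 CPM with acupuncture, against 128 and 65.6 CPM with dysentery alone. Among the other metal response genes Slc30a1, a zinc exporter, was at 6.0 and 6.02 CPM in fibroblast-like cells with acupuncture, against 3.20 and 3.66 CPM with dysentery alone, and did not pass (0.81 ± 0.19, adjusted p = 0.0987). It rose in dendritic cell-like cells, with 25.6 and 24.4 CPM with acupuncture, against 10.5 and 7.05 CPM with dysentery alone (1.5 ± 0.27, adjusted p = 0.00785), where 2 of 3 metal response genes tested rose. In macrophage-like cells 1 of 5 rose, namely Mt2A. The groups overlapped there for Slc30a1 (0.25 ± 0.26, adjusted p = 0.624) and Mtf1 (0.03 ± 0.34, adjusted p = 0.972). They also overlapped for Mt3 (-1.73 ± 0.96, adjusted p = 0.124) and Slc39a14 (0.95 ± 0.43, adjusted p = 0.260).

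Genes with other known inducers moved in the same classes. Of 10 p53 targets tested, 4 rose in fibroblast-like and 3 in macrophage-like cells, among them Gdf15, a stress-induced cytokine, at 4.03 ± 0.29 and 3.30 ± 0.25 on the log2 scale (adjusted p = 0.00539 and 0.0133). Mdm2, the p53 feedback gene, rose by 0.86 ± 0.14 and 1.30 ± 0.22 (adjusted p = 0.0456 and 0.0447), and Plk2 by 1.76 ± 0.16 and 1.93 ± 0.32 (adjusted p = 0.0105 and 0.0433). Btg2 rose in fibroblast-like cells (2.34 ± 0.21, adjusted p = 0.00997). Bax, a further p53 target, was at 85.1 and 85.3 CPM in fibroblast-like cells with acupuncture, against 80.6 and 79.3 CPM with dysentery alone (0.10 ± 0.10, adjusted p = 0.614). In dendritic cell-like cells 3 of 9 p53 targets tested rose, with a median log2 fold change of 0.69. Of all genes, 1.81% rose in fibroblast-like, 1.88% in macrophage-like and 5.33% in dendritic cell-like cells.

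Immediate early genes, which are also induced when tissue is digested, were tested as a list of 10. In fibroblast-like cells 9 rose, led by Atf3 (4.43 ± 0.18, adjusted p = 0.00126), Egr1 (3.16 ± 0.16, adjusted p = 0.00154) and Jun (2.60 ± 0.18, adjusted p = 0.00530). In macrophage-like cells 4 rose (Ier3, Junb, Ier2 and Fosb), and in dendritic cell-like cells all 10 did. The sum of the 10 genes was 12213 and 14586 CPM in fibroblast-like cells with acupuncture, against 2649 and 3317 CPM with dysentery alone. In macrophage-like cells it was 22697 and 26697 CPM, against 12409 and 7156 CPM, and in dendritic cell-like cells 23815 and 22527 CPM, against 6762 and 6858 CPM. In the classes where no member was called the sum differed in direction. It was 21071 and 18888 CPM, against 14074 and 8553 CPM, in T cell-like cells (2 of the 10 genes called), and 7859 and 8765 CPM, against 4971 and 6163 CPM, in vascular endothelial-like cells (1 called). In NK or innate lymphoid-like cells it was 21840.2 and 19497 CPM with acupuncture, against 31771 and 15529 CPM with dysentery alone, and in neutrophil-like cells 22525 and 16831 CPM, against 25529 and 24515 CPM, with none called in either. Of the 11 listed genes that rose in macrophage-like cells, 9 lost the call without acupuncture library 1 (all but Gdf15 and Fosb) and 10 without acupuncture library 2 (all but Gdf15). Mt2A there moved to 4.29 without dysentery library 1 and to 2.65 without dysentery library 2. Of 20 listed genes followed through the alternatives in fibroblast-like cells, 4 lost the call without acupuncture library 1, 8 without acupuncture library 2, 1 without dysentery library 1 and 4 without dysentery library 2. Mdm2 lost it each time (adjusted p up to 0.186). The part of dissociation, or of any inducer other than hormone, in the change of the members was not tested.

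Markers of other cells were summed in the 2 large classes. The 8 macrophage markers summed to 116 and 92.1 CPM in fibroblast-like cells with acupuncture, against 80.4 and 45.9 CPM with dysentery alone, and to 35679 and 31279 CPM, against 27590.1 and 28175 CPM, in macrophage-like cells. The 6 fibroblast markers summed to 359.9 and 469 CPM in macrophage-like cells with acupuncture, against 894 and 592 CPM with dysentery alone. The 5 monocyte markers summed to 94.3 and 115 CPM in macrophage-like cells with acupuncture, against 564 and 405 CPM with dysentery alone. In fibroblast-like cells they summed to 4466 and 4836 CPM, against 4313 and 3979 CPM. These sums were far above those of macrophage-like cells in every library. They alone do not show monocyte RNA in fibroblast-like cells, and its part in them was not tested. Macrophage-like cells made up 23.69% and 27.03% of the cells kept with acupuncture, against 9.37% and 10.33% with dysentery alone. The part of these differences in the changes of the members was not tested. The 6 neutrophil markers summed to 59.4 and 22.1 CPM in fibroblast-like cells with acupuncture, against 141 and 14.9 CPM with dysentery alone, and stood highest in dysentery library 1 in macrophage-like cells too, at 135 CPM. No listed macrophage, fibroblast or neutrophil marker was at 0 in these sums, save Mmp8 in macrophage-like cells.

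Genes whose pattern over the 28 sums of class and library was most like that of Nr3c1, among 7823 genes at a mean of at least 10 CPM, were Usp46, Zfp830 and Osbpl1a (Pearson's r = 0.90, 0.90 and 0.89 of log2(CPM + 1)). Those most like Fkbp5 were Dnajb1, Brd2 and Ube2s (r = 0.82, 0.80 and 0.78). Among the members, Nr3c1 was most like Klf9 (r = 0.71) and Fkbp5 most like Mt1 (r = 0.66). The points share libraries, classes and depth, so these values are descriptions.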

How the data were processed

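Collagenase, elastase and DNase freed the cells and these were cleared of red and dead cells before 10x 3' library construction, per the labels' protocols. Per the submitters' processing notes, Cell Ranger 6.0.1 and STAR were used; the builds mRatBN7.2 and GRCh38.p13 are named without a role. UMI counts, not normalized, are what the authors deposited for each gene in each cell, and the deposited feature and barcode lists hold names (unit: other). Cells with at least 300 genes, 500 UMIs and at most 20% mitochondrial UMIs were kept. Scrublet (scanpy 1.11.5) scores set the doublets removed, at 0.8% per 1000 cells. A cell passed a gate with at least 3 listed markers detected and marker UMIs of at least 100 (fibroblast), 50 (macrophage) or 10 (other types) per 10000, and cells passing several gates were left out.

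Counts of all cells of a class in a library were added up, so that the library is the replicate. A class entered the tests where no library had fewer than 30 cells. The test was the edgeR 4.0.16 quasi-likelihood test (R 4.3.3, TMM, filterByExpr at a minimum count of 10, Benjamini-Hochberg adjustment over all genes of a class, threshold 0.05), which was tested on simulated data. Interaction and level fits took library as a block. Errors are standard errors of the fit or SDs over libraries. Alternatives were DESeq2 1.42.0, RLE size factors, no count filter, a replicate block, each library left out, a stricter gate, Leiden clusters, doublets kept and a 10% mitochondrial limit. The members, lists and markers were chosen with earlier results of these data known. Text gives the members in every class tested, up to 6 called genes per list by size of change in the 2 large classes, other listed genes chosen after their values were seen, and the 3 genes most like Nr3c1 and Fkbp5. No 2 libraries of a group agreed within sampling noise (chi-square per degree of freedom 12.5 to 59.4).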

Additional observations from a re-analysis of the deposited data

Results flagged for a closer look

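The change of Klf9 differed between macrophage-like and fibroblast-like cells, by 1.68 ± 0.20 on the log2 scale (adjusted p = 0.0217, edgeR quasi-likelihood interaction test). Klf9 changed by 2.02 ± 0.13 in macrophage-like and by 0.36 ± 0.16 in fibroblast-like cells, acupuncture minus dysentery. In CPM, macrophage-like cells had 60.9 and 66.8 with acupuncture, against 17.3 and 17.6 with dysentery alone, and fibroblast-like cells 384 and 435, against 313 and 331. The call for the difference was lost without acupuncture replicate 1 (1.58, adjusted p = 0.308, edgeR) and without acupuncture replicate 2 (1.78, adjusted p = 0.256, edgeR).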

How the results depend on the processing

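With 2 libraries per group, leaving out 1 library left a group with 1, which was assumed to vary like the other group. Of 1069 recomputed values of 95 gene results, 908 kept their direction and side of the threshold, 66 kept the direction but lost the call, 55 gained one and 40 turned round; the cause was not tested. Genes called in fibroblast-like cells numbered 862 with DESeq2, 866 without the count filter and 95 to 593 with 1 library left out. In macrophage-like cells they numbered 722 with DESeq2, 2000 without the filter, 1256 in Leiden clusters and 19 to 957 with 1 library left out, which held 0 to 5 members. In dendritic cell-like cells they numbered 978 without the filter and 545 to 1067 with 1 library left out. In neutrophil-like cells they numbered 14 with RLE size factors, 72 without the filter, 49 under the stricter gate, 0 in Leiden clusters, 19 with doublets kept and 0 to 57 with 1 library left out. In T cell-like cells they numbered 90 with DESeq2, 361 without the filter, 103 under the stricter gate, 137 in Leiden clusters, 112 with doublets kept, 65 at the 10% mitochondrial limit and 119 to 247 with 1 library left out. T cell-like members called numbered 1 with DESeq2, doublets kept or the 10% limit, 2 in Leiden clusters, 3 without the filter or under the stricter gate, and 1 to 3 with 1 library left out. In NK or innate lymphoid-like cells genes called numbered 356 without the filter, 14 with doublets kept, 11 at the 10% limit and 179 to 273 with 1 library left out, and members 3 without the filter and 1 to 3 with 1 library left out. In vascular endothelial-like cells genes called numbered 45 with DESeq2, 303 without the filter, 2 with doublets kept, 47 at the 10% limit and 2 to 222 with 1 library left out, and members 2 without the filter and 0 to 1 with 1 library left out. For the difference in change between macrophage-like and fibroblast-like cells, genes called numbered 712 without the filter and 0 to 845 with 1 library left out. Members called there numbered 4 without the filter, 2 under the stricter gate, with doublets kept or at the 10% limit, and 0 to 3 with 1 library left out.

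The labels number the libraries but do not pair them. The deviations of same-numbered libraries from their own group means correlated at -0.07 to 0.18 over genes, depending on the class. With the replicate number as a block, genes called numbered 789 in fibroblast-like, 13 in macrophage-like (1 member, and none of the 11 listed genes named there), 30 in neutrophil-like, 129 in T cell-like (1 member), 113 in NK or innate lymphoid-like and 417 in vascular endothelial-like cells (2 members).

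The turned values are log2 changes, acupuncture minus dysentery. In macrophage-like cells Nr3c1 was at 0.23 in Leiden clusters, Sgk1 at 0.13 with the block, 0.79 in Leiden clusters and -0.65 to 0.96 with 1 library left out, and Zbtb16 at 0.11 in Leiden clusters, 0.00596 at the 10% limit and -0.56 to 0.32 with 1 library left out. In neutrophil-like cells Nr3c1 was at 0.038 under the stricter gate and -0.30 to 0.16 with 1 library left out, Fkbp5 at -0.025 with DESeq2 and Klf9 at -1.13 to 0.93 with 1 library left out. In T cell-like cells Mt1 was at -0.31 under the stricter gate, -0.24 in Leiden clusters and -0.067 to 0.090 with 1 library left out, and Fkbp5 at -0.20 to 0.65 with 1 library left out. In NK or innate lymphoid-like cells Fkbp5 was at 0.014 with the block, 0.028 under the stricter gate, 0.024 in Leiden clusters, 0.049 with doublets kept and -0.26 to 0.20 with 1 library left out. In vascular endothelial-like cells Cdkn1a was at 0.069 under the stricter gate, 0.033 in Leiden clusters, 0.090 with doublets kept and -0.57 to 0.19 with 1 library left out, and Nr3c1 at -0.00457 to 0.24 with 1 library left out. With 1 library left out, Nr3c1 in dendritic cell-like cells was at -0.042 to 0.63. The difference in change between macrophage-like and fibroblast-like cells was -0.00639 for Nr3c1 with RLE, -0.00786 with doublets kept and -0.10 to 0.14 with 1 library left out, and for Mt1 -0.51 to 0.079. The difference in level between these classes was 0.00844 for Nr3c1 with RLE and -0.075 to 0.054 with 1 library left out, and for Zbtb16 -0.36 to 0.066. The Leiden and stricter-gate dendritic classes were not run, since acupuncture replicate 1 had under 30 cells in each.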

Other observations

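Cells that passed no gate numbered 862 and 1412 in the acupuncture libraries, against 1175 and 1754 in the dysentery libraries, and 3647 of these 5203 cells fell in clusters named macrophage in the unsupervised clustering. In their summed counts Cdkn1a was at 105 and 122 CPM with acupuncture, against 35.0 and 12.1 CPM with dysentery alone. Mt1 was at 58.7 and 62.5 CPM with acupuncture, against 27.2 and 14.3 CPM with dysentery alone, and Klf9 at 60.8 and 53.4 CPM, against 47.6 and 20.7 CPM. Nr3c1 was at 108 and 130.4 CPM, against 112 and 87.7 CPM. These cells were not tested.

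Classes with fewer than 30 cells in a library were left out of the tests. In mural-like cells Mt1 had 19 and 17 UMIs with acupuncture, against 0 and 0 UMIs with dysentery alone, in 27 and 16 cells, against 5 and 6 cells. In keratinocyte or epithelial-like cells Mt1 was at 242 and 116 CPM with acupuncture, against 47.3 and 45.7 CPM with dysentery alone.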
